A study of Mus musculus with 3 samples.

Results

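The 300 promoters described here held the largest share of their contacts close by in mouse erythroid cells. Each promoter is represented by its viewpoint, the DpnII restriction fragment that oligonucleotide probes pulled down from a chromosome conformation capture library. The local share is the percent of all ligation events of a viewpoint on its own chromosome (cis events) that fell within 1 Mb of the viewpoint midpoint. Viewpoints on chromosome X, viewpoints whose name was listed for more than 1 fragment and viewpoints with under 1000 cis events were left out, and the 300 with the highest mean local share over the 3 libraries were taken from the 6517 that remained, or 4.60% of them. They are called local promoters below, and the remaining 6217 eligible viewpoints are called the other promoters. Of the 7197 viewpoints listed, 16 carried a repeated name, 5 had no contacts, 201 lay on chromosome X and 458 did not reach 1000 events. The name refers to a share and not to an amount, as the local promoters had fewer cis events in all than the other promoters.

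Nuclear-titrated (NuTi) Capture-C was carried out in triplicate on ter119+ erythroid cells, which formed 1 group with no treated or control counterpart. The cells came from spleens of F1 mice of a C57BL/6-cross-CBA/J, made anaemic with phenylhydrazine and killed on day 5, and were selected with magnetic beads for the red cell marker ter119. The labels give no genotype beyond the strain and no age, and do not say whether animals were pooled. The files hold contacts only, so the cell type could not be checked against marker expression, and both parental alleles were counted together.

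Promoters meet other parts of their own chromosome with a frequency that falls with distance along the DNA. The chromosome is further divided into domains whose contacts stay largely within their borders, and into gene-rich and gene-poor compartments that each contact their own kind over long distances. In red cell precursors the chromatin condenses and most genes are shut down, while the genes of haemoglobin and the red cell membrane remain highly active.

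The stretches below are shown because they lie in the viewpoint fragments of 4 of the 5 leading local promoters, which were 230 bp long at Ehbp1l1, 227 bp at Gmppb, 289 bp at Prkar2b and 274 bp at Mob3a. They are given 5′ to 3′ on the plus strand of mm9 and show CG in capitals, with annotated exons left out. The Ehbp1l1 stretch is chr19:5726318-5726361, that of Gmppb is chr9:107951445-107951599, that of Prkar2b is chr12:32746162-32746221 and that of Mob3a is chr10:80164566-80164711.
Ehbp1l1: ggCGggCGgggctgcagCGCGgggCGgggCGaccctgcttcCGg
Gmppb: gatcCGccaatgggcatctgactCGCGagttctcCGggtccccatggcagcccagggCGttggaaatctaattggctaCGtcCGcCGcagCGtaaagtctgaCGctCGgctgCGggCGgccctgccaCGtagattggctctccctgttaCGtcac
Prkar2b: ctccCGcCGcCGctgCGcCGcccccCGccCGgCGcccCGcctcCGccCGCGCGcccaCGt
Mob3a: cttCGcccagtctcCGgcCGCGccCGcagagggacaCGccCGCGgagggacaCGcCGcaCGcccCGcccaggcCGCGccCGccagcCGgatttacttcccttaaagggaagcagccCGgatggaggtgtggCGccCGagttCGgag

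A few local promoters shared their sequence with another fragment nearby, and 3 such pairs are shown because single fragments held up to 30.8% of the cis events there. Capitals mark bases within the stretch that is identical in both fragments, and annotated exons are again left out. The Gon4l stretch lies at chr3:88639082-88639152 and its partner at chr3:88579087-88579137 in Syt11. The 1700047I17Rik2 stretch lies at chr12:56300548-56300578 and its partner at chr12:56225484-56225514, where Srp54b and Fam177a are annotated. The Nat8f4 stretch lies at chr6:85854879-85854976 and its partner at chr6:85845299-85845491, outside protein-coding genes.
Gon4l: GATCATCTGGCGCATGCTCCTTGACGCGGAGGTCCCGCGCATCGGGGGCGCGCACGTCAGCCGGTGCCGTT
Gon4l partner: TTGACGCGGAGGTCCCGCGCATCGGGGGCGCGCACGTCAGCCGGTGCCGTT
1700047I17Rik2: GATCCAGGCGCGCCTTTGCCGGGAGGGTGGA
1700047I17Rik2 partner: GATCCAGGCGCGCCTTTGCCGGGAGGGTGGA
Nat8f4: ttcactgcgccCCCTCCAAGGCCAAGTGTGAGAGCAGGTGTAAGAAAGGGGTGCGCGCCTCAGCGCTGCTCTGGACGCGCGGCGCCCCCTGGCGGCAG
Nat8f4 partner: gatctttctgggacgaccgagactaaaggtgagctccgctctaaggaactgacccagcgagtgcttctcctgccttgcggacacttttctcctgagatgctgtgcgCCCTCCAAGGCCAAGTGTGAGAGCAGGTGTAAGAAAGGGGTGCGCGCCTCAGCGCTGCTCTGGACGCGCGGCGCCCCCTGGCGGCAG

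The 3 libraries are named a, b and c, since their columns carried no sample names. They held 18230099, 34428035 and 34233560 cis events over all viewpoints. Over the 300 local promoters, the mean chi-square value of the local share was 1.10 per viewpoint between libraries b and c, near the value of 1 that sampling noise gives, and 12.5 and 11.6 between library a and each of them. Libraries b and c therefore agree within sampling noise in the local share and were counted as 1 sample. Every mean and SD below is over n = 2, library a and the mean of b and c. The division of events over fragments within a range of distance set library a only slightly apart. This measure takes each viewpoint's total in the range as given, so it cannot show the difference in local share. In each range, both values with library a were slightly above that of b and c. From 10 to 100 kb the mean chi-square per fragment was 0.959 for b and c, 0.998 for a and b and 0.987 for a and c. The study describes its libraries as independent, and whether b and c are repeat captures of the same material is not known. The values of each library are therefore given as well for many results, though not for all. An SD over n = 2 leaves out the gap between b and c. Nothing in the labels says whether the libraries came from separate animals, so the spread may be technical.

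The local share chose the promoters, so its values are given as a description with no test. Across the local promoters its medians were 69.8%, 65.4% and 65.3% in the order a, b and c (67.6% ± 3.12, SD, n = 2). The other promoters had medians of 46.8%, 42.5% and 42.8% (44.7% ± 2.96). The 3-library mean ran from 63.4% to 79.6% over the local promoters, with a median SD between samples of 3.19 percentage points. Library a was the highest as a rule, above library b at 285 of the 300 local promoters and above library c at 287, while library b was above library c at 131. All 300 were above the median of all eligible viewpoints in each library, and 233 were among the highest 300 of library a, of b and of c alike.

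**Figure D1:**
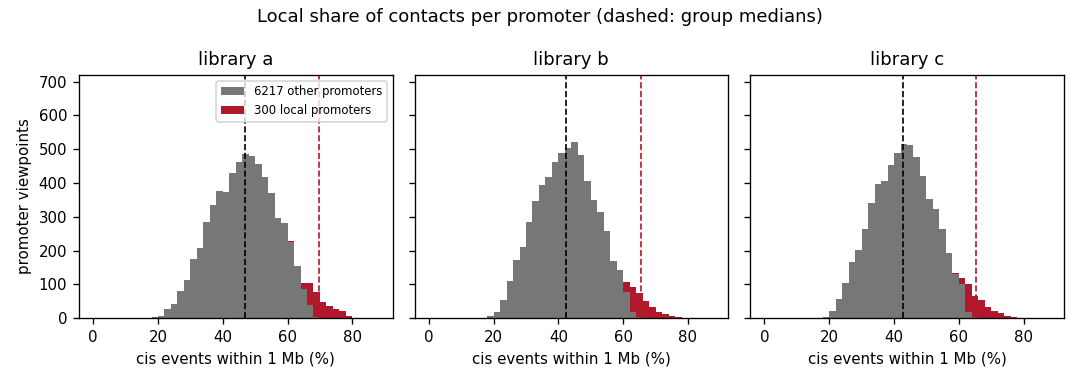
Number of eligible viewpoints (y axis) by local share in percent (x axis) in libraries a, b and c, with the 300 local promoters in red stacked on the other promoters in grey and dashed lines at the group medians. The local promoters form the upper end of 1 continuous distribution, with medians of 69.8%, 65.4% and 65.3% against 46.8%, 42.5% and 42.8%.

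Ehbp1l1 led the list, with local shares of 82.7%, 78.5% and 77.7% in libraries a, b and c, resting on 2736 cis events. Its product binds Rab GTPases in membrane trafficking. The exact binomial 95% intervals, which cover counting error only, ran from 79.7% to 85.4%, from 75.8% to 81.0% and from 75.1% to 80.3% in the same order. The interval of library a overlapped those of both other libraries.

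Gmppb, a subunit of the enzyme that makes GDP-mannose, followed with 79.3%, 77.1% and 75.9%. Fam89b, next to Ehbp1l1 on chromosome 19, had 79.0%, 75.5% and 76.9%. Prkar2b, a regulatory subunit of protein kinase A, had 75.5%, 74.6% and 80.2% and was the one of the leading 10 with its highest value in library c. The remaining leaders were Mob3a (a mean of 76.4%), Frmd8 (76.3%), Vps51 of the GARP tethering complex (76.2%), Gon4l (76.1%), the RNA-binding protein gene Rbm4b (76.0%) and the acetyltransferase gene Kat5 (75.9%). Of these 10, Ehbp1l1, Fam89b, Frmd8, Vps51, Rbm4b and Kat5 lie on chromosome 19.

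The lower limit cut through closely spaced values. Just inside lay Fam195b at 63.44%, Atg4d at 63.39% and Ifi30 at 63.39%, and just outside lay Upf1 at 63.35%, Ift57 at 63.30% and Yif1a at 63.28%. These differences are far below the spread between samples. Precision also varied with depth, since 43 local promoters had under 2000 cis events, from 1001 at Ptges3 up to 87605 at Dapk2.

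The choice was also made on some libraries and the local share read in the others. The sets chosen so differ from the 300 local promoters, which rest on all 3 libraries. Of those chosen on library a, 271 were local promoters, and of those chosen on b and c, 283 were. All libraries are of the same kind of cells, so these values describe how the share repeats and test nothing. When 300 promoters were chosen on library a alone, 248 of them were among the highest 300 of library b and 251 among those of library c. Their median local share was 65.2% in library b, against 42.5% for the viewpoints not chosen, and the lowest of them had 56.5%. In library c the median was 65.2% against 42.8%. When they were chosen on libraries b and c, 254 were among the highest 300 of library a, with a median of 69.7% against 46.8%. In each of these readings 300 of 300 lay above the median of the viewpoints not chosen. With 3 libraries of 1 group no exact test can reach p = 0.05, so none is given.

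The local promoters had the larger share of events in each range up to 1 Mb and the smaller in each range beyond, with the widest gaps from 10 to 500 kb and beyond 2 Mb. Between 10 and 100 kb of the viewpoint the local promoters had medians of 26.8%, 24.5% and 24.6% of their cis events in libraries a, b and c (25.7% ± 1.59), against 16.3% ± 1.30 for the other promoters. Between 100 and 500 kb they had 24.8%, 23.6% and 23.9% (24.3% ± 0.717) against 14.0% ± 0.548. Between 500 kb and 1 Mb the values were closer, at 6.89% ± 0.137 against 5.36% ± 0.0085.

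From 1 to 2 Mb the order was turned, with 4.40% of cis events at the local promoters and 5.22% at the other promoters. From 2 to 10 Mb the local promoters had 8.06% ± 0.808 against 16.1% ± 0.627, and beyond 10 Mb 18.7% ± 2.45 against 33.6% ± 2.27. Close to the viewpoint, from 2.5 to 10 kb, they had 8.13% ± 0.776 against 6.16% ± 0.763. All of these ranges come from the counts that chose the promoters and are given without a test.

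The radius that held 50% of the cis events had a median of 249 kb over the local promoters and 2222 kb over the other promoters. It ran from 60.0 kb to 544 kb among the local promoters, and the lowest value, at Gon4l, is the distance of the partner fragment with the same sequence shown above. Among genes with a part in blood cells the radius differed, and examples only are given. It was 73.9 kb at Hba-1, 75.9 kb at Slc4a1 and 80.1 kb at Hba-2. Mcl1, which encodes a survival protein, had 302 kb, and Runx1_a, a promoter of a blood transcription factor gene, had 382 kb.

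**Figure D2:**
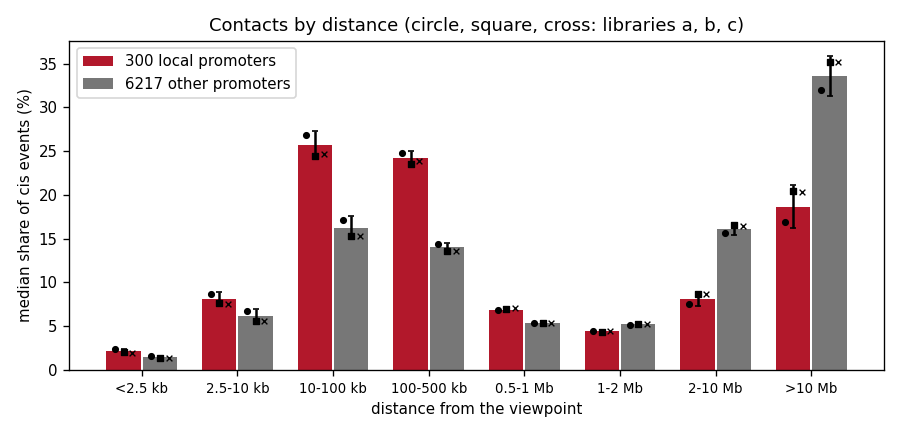
Percent of cis events (y axis) in ranges of distance from the viewpoint midpoint (x axis) for local and other promoters, as bars at the mean over 2 samples of the median share, with the SD as error bars and the 3 libraries as symbols. The local promoters were higher in each range up to 1 Mb, with 25.7% against 16.3% between 10 and 100 kb, and lower in each range beyond, with 18.7% against 33.6% over 10 Mb.

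Inside 1 Mb the overall slope of contacts with distance was close in both groups, while the shape differed. After each viewpoint was scaled to the same total within 1 Mb, which takes out the quantity used for the choice, the slope of log10 events per fragment on log10 distance from 10 kb to 1 Mb was -0.943, -0.910 and -0.909 in libraries a, b and c for the local promoters (-0.926 ± 0.024). The other promoters had -0.914 ± 0.023. The difference within a library was -0.013, -0.012 and -0.011 (-0.012 ± 0.0009), and over 20 to 500 kb it turned to 0.0065, 0.0066 and 0.0079. On this scale the local promoters were lower at both ends of the range and higher between. Of the events within 1 Mb, those from 2.5 to 10 kb made up 11.9% ± 0.457 at the local promoters and 14.0% ± 0.865 at the other promoters, those from 100 to 500 kb 35.6% ± 0.798 and 31.9% ± 0.786, and those from 500 kb to 1 Mb 10.1% ± 0.642 and 12.4% ± 0.775.

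Local promoters were crowded into a few chromosome regions. Chromosome 19 held 49 of them among 250 eligible viewpoints (19.6%) and chromosome 10 held 52 among 320 (16.3%), against the 4.60% chosen over all chromosomes. Chromosomes 8, 9 and 7 followed with 7.92%, 7.49% and 7.28%. At the other end, chromosome 2 held 2 local promoters among 558 eligible viewpoints (0.358%) and chromosome 1 held 2 among 379 (0.528%). The viewpoints of chromosome 19, the shortest in the comparison at 61.3 Mb, had the highest median local share of any chromosome, 51.5%. When the share was taken of the signal within 10 Mb in place of all cis signal, 7.60% of the viewpoints of chromosome 19 and 12.8% of those of chromosome 10 were among the highest 300. The part of chromosome length in this was not tested. Viewpoints close to each other share contacts, so no test was run over viewpoints.

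When neighbouring local promoters less than 1 Mb apart were joined, they formed 61 regions. A single local promoter made up 27 of these, 19 held 2 to 4, and 15 held 5 or more with 225 of the 300 between them. The nearest other eligible viewpoint was also a local promoter at 208 of the 300 (69.3%).

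The largest region, chr19:4097284-6306797, held 47 local promoters among its 55 eligible viewpoints, with a median local share of 71.2%. The region chr10:79421657-80847619 held 32 of 38 (69.8%), and chr7:133935661-134732768 held 20 of 20 (66.6%). The region chr10:127452177-128004049 held 19 of 21, chr9:107456676-108250514 held 16 of 22, chr3:94937743-96072772 held 15 of 23, chr7:148379698-148748482 held 12 of 15 and chr9:20833633-21421143 held 10 of 14. These 8 regions together held 171 local promoters. A further region, chr16:91044166-92697869, held 9 of 12, among them the interferon receptor genes Ifnar1 and Ifnar2, the cytokine receptor gene Il10rb and Runx1_a.

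The longest unbroken runs had 29 local promoters each. The run on chromosome 19, chr19:5365944-6141972, had medians of 75.7%, 71.6% and 72.0% in libraries a, b and c (73.8% ± 2.74). In order along the chromosome it passed through Banf1_Eif1ad, D330050I16Rik_Sart1, Ccdc85b, Fibp, Efemp2, Mus81, Cfl1, Snx32, Ap5b1, Rnaseh2c, Kat5, Rela, Sipa1, Pcnx3, Map3k11, Ehbp1l1, Fam89b, Frmd8, Tigd3, Dpf2, Cdc42ep2, Pola2, Capn1, Syvn1, Mrpl49_Fau, Vps51, Zfpl1_Cdca5, Snx15 and Arl2. Rela encodes a subunit of the transcription factor NF-κB, Cfl1 the actin-severing protein cofilin and Pola2 a subunit of DNA polymerase alpha. The leading local promoter, Ehbp1l1, stands near the middle of this run.

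The run on chromosome 10, chr10:79421657-80364096, had medians of 74.6%, 68.5% and 68.3% (71.5% ± 4.42). It passed through Wdr18, Abca7, Polr2e, Sbno2, Stk11, Atp5d, Midn, Cirbp, Ndufs7, Rps15, 2310011J03Rik, Mex3d, Mbd3, Uqcr11, Tcf3, Rexo1, Klf16, Abhd17a, Adat3_Scamp4, Csnk1g2, Mknk2, Mob3a, Izumo4, Ap3d1, Dot1l, Plekhj1_Sf3a2, Oaz1ps_Oaz1, Sppl2b_Lsm7 and Timm13. Tcf3 encodes the E proteins that partner Tal1, Polr2e an RNA polymerase subunit, and Atp5d, Ndufs7 and Uqcr11 parts of the respiratory chain and ATP synthase.

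The run of 20 on chromosome 7, chr7:133935661-134732768, had medians of 70.6%, 64.1% and 64.8% (67.5% ± 4.30). Its promoters were Ppp4c, Aldoa, Ino80e_Hirip3, Tmem219, Kctd13, Cdipt, Mvp, Pagr1a, AI467606, Cd2bp2, Zfp553_Gm4532, Dctpp1, Sephs2, Zfp747, 9130019O22Rik, Zfp688, Zfp689, Prr14, Srcap_1700008J07Rik and Rnf40_Ccdc189. Aldoa encodes the glycolytic enzyme aldolase A, and all 4 local promoters of the zinc finger (Zfp) gene list lie in this run.

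**Figure D3:**
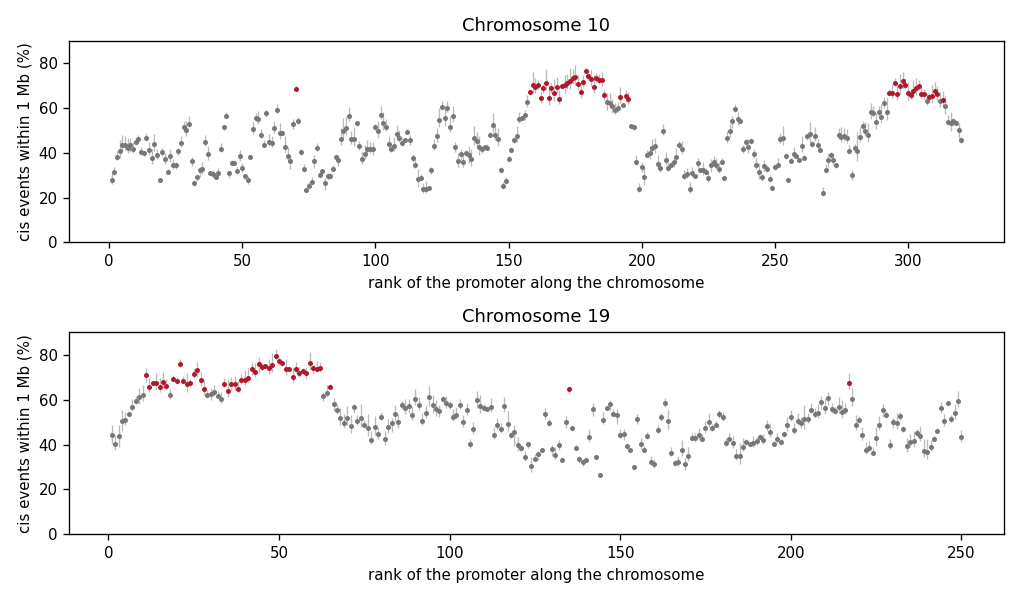
Local share in percent (y axis), the mean over 3 libraries as points and their range as thin lines, of eligible viewpoints in their order along chromosomes 10 and 19 (x axis), with local promoters in red. Local promoters stood in blocks, with runs of 29 on each of the 2 chromosomes, apart from a few single ones.

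The surroundings of the local promoters were denser in genes and in captured promoters. Within 1 Mb lay a median of 34 other viewpoints at the local promoters and 10 at the other promoters, and the local promoters had the higher median on 12 of the 12 chromosomes compared. Annotated protein-coding genes within 1 Mb numbered 77.5 against 30, again on 12 of 12 chromosomes. The GC content of the surrounding window was 47.6% against 44.8%, higher on 11 of 12 chromosomes. Local promoters also lay nearer to an end of the chromosome sequence, at a median of 18.2 Mb against 29.9 Mb, lower on 9 of 12 chromosomes. Their lower quartile was 3.05 Mb against 17.1 Mb. The part of this distance in the local share was not tested. The difference of 24 viewpoints was 16 for the 300 highest with the 10 Mb denominator and 11 when the same proportion was chosen on each chromosome. Of the 300, 280 had more viewpoints around them than the median other promoter.

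The share of viewpoints that were local promoters rose with crowding. It was 0.468% of the 1282 viewpoints with up to 4 other viewpoints within 1 Mb and 0.550% of the 1637 with 5 to 9. It was 2.28% with 10 to 19, 4.65% with 20 to 29, 20.8% with 30 to 39 and 52.1% of the 194 with 40 to 60. Spearman's rho between crowding and local share was 0.639 over the 6517 eligible viewpoints, given as a description because neighbouring viewpoints share the same surroundings. Targeted fragments themselves do not appear among the contacts, so ligation events between 2 targeted fragments are not part of any share, while the fragments beside them are counted.

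**Figure D4:**
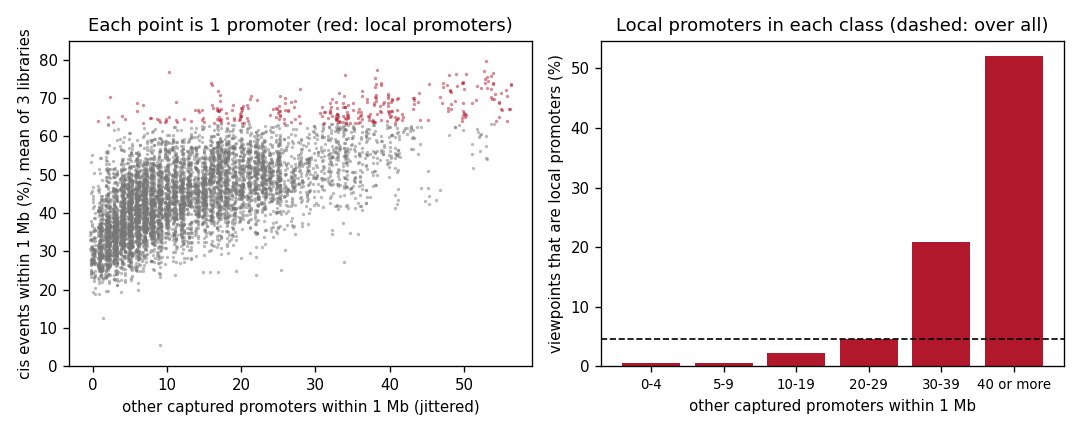
At the left, local share in percent, the mean over 3 libraries (y axis), against the number of other viewpoints within 1 Mb (x axis) for each eligible viewpoint, with local promoters in red, and at the right, the percent of viewpoints in each class of crowding that were local promoters, with a dashed line at 4.60%. The percent rose from 0.468% with up to 4 neighbours to 52.1% with 40 or more.

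The viewpoint fragments of the local promoters were shorter, with a median of 579 bp against 761 bp, and had a GC content of 60.4% against 59.0%. They gave fewer cis events, with medians of 1179, 1873 and 1857 in libraries a, b and c against 1448, 2722 and 2691 at the other promoters. The ratio of these medians was 0.752 ± 0.089. The part of fragment length in the local share was not tested.

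A few local promoters had sparse surroundings. Of the 300 local promoters, 6 had at most 4 other viewpoints within 1 Mb. Cd47, which encodes the surface signal that protects red cells from phagocytosis, had 2 other viewpoints within 1 Mb and local shares of 70.5%, 71.4% and 69.2% (rank 59). The lipid phosphatase gene Plpp1 had 65.4%, Tmem242 65.0%, the guanine deaminase gene Gda 64.6%, the ribosomal RNA methyltransferase gene Dimt1 64.0% and Carhsp1 63.9% as means over the libraries. With a window of 2 Mb, Tmem242, Gda, Dimt1 and Carhsp1 were not among the highest 300, and with the 10 Mb denominator Plpp1, Dimt1 and Carhsp1 were not. Dimt1 also dropped out when library b was left out. Without contacts within 10 kb, Dimt1 and Carhsp1 were not among the highest 300. Gda and Carhsp1 were not chosen when the same proportion was taken from each chromosome.

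Lists of red cell function are described by their counts, beside the 4.60% chosen over all and with no test. The share was 33.3% for globins, 13.8% for the red cell membrane and skeleton, 14.3% for organelle clearance, 12.0% for erythropoietin signalling, 9.38% for transcription factors, 5.26% for heme synthesis and 5.00% for iron handling. The median local share of these lists was 58.5%, 53.3%, 45.0%, 49.4%, 53.1%, 49.98% and 47.4% in the same order, against 44.6% over all eligible viewpoints. Of 6 eligible viewpoints of globins and the alpha-haemoglobin stabilising protein, 2 were local promoters, both of alpha-globin. Hba-2 had 68.3%, 62.2% and 63.1% in libraries a, b and c (rank 240), and Hba-1 had 67.6%, 61.8% and 61.7% (rank 283). The beta-globin promoters were well below, with 47.4%, 47.1% and 47.5% at Hbb-b2 (rank 2564) and 47.5%, 45.9% and 46.9% at Hbb-b1 (rank 2720). The ranges of the alpha- and beta-globin viewpoints over the libraries did not overlap. Hba-1 was no longer among the highest 300 when library a or contacts within 10 kb were left out, and neither alpha-globin promoter was with a window of 2 Mb.

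Of the 29 viewpoints of red cell membrane and skeleton genes, 4 were local promoters. These were Cd47, the mechanically gated channel gene Piezo1 with 67.0%, 68.5% and 68.6%, the blood group adhesion gene Icam4 with 73.0%, 62.5% and 63.3%, and Slc4a1, the anion exchanger band 3, with 66.6%, 61.6% and 62.2%. Slc4a1 was not among the highest 300 when library a, library c or contacts within 10 kb were left out. Nor was it with a window of 2 Mb or with the 10 Mb denominator, and Piezo1 was not with that denominator. Icam4 had one of the wider spreads, with library a about 10 points above the others. Among 20 genes of iron handling the transferrin receptor gene Tfrc was the only one, with 70.2%, 65.9% and 67.7%. Among 19 genes of heme synthesis the mitochondrial carrier gene Slc25a39 was the only one, with 69.3%, 63.2% and 63.6%. It was not among the highest 300 with the 10 Mb denominator.

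Of 32 erythroid transcription factor viewpoints, 3 were local promoters. Tcf3 had 75.3%, 69.1% and 68.5%, the basic helix-loop-helix factor gene Lyl1 had 72.2%, 71.9% and 67.7%, and Runx1_a had 70.3%, 66.4% and 67.8%. Of 25 viewpoints of erythropoietin signalling and survival, 3 were local promoters, with means of 68.8% at Mcl1, 66.8% at the kinase gene Pim1 and 65.0% at Bcl2l1_a, a promoter of the gene for Bcl-xL. Of 21 of organelle clearance and terminal maturation, 3 were local promoters, with 67.8% at Dnase2a, the nuclease that degrades expelled nuclei in macrophages, 66.4% at the autophagy gene Becn1 and 64.4% at Wdr26. A list meant for immune genes but set only by the start of gene symbols had 7 of 38 (18.4%). It was led by Il10rb (73.5%), Cd47 and Cd2bp2 (69.0%), and does not take in Ifnar1 and Ifnar2. The functions of its genes were not checked, so the percent is not a share of immune genes. Cd151 entered with more than 1 viewpoint, and Cd47 is also in the membrane list.

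Among housekeeping groups the share of local promoters ran on both sides of the 4.60% chosen over all. The respiratory chain and ATP synthase had 7 of 77 (9.09%), led by Uqcr11 (70.2%), Atp5d (68.9%) and Ndufs7 (68.6%), which stand in the same run on chromosome 10. Cytoplasmic ribosomal proteins had 4 of 76, mitochondrial ribosomal proteins 5 of 70, ubiquitin conjugation 9 of 172 with Rnf123 (73.5%), Usp4 (70.7%) and Uba7 (70.1%) at their head, vesicle trafficking 10 of 204, DNA replication and repair 5 of 95 with Pola2 (73.6%), Cdt1 (70.4%) and Rad9a (68.1%), and chromatin modifiers 5 of 73. Histone genes had 4 of 43 (9.30%), the Mediator and RNA polymerase machinery 3 of 98, the spliceosome 2 of 69 and zinc finger genes 4 of 194 (2.06%). Proteasome and chaperone genes had 4 of 109, solute carriers 4 of 117, translation factors 2 of 62 and uncharacterised genes 13 of 336. Neither cell cycle regulators (0 of 29) nor clustered receptor genes (0 of 8) held any. Members of a list often share a region, so these counts are not independent draws.

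Other well studied viewpoints spread over the whole range. In the block on chromosome 9, the antioxidant gene Gpx1 (70.3%, rank 60) and Uba7 (70.1%, rank 63) were local promoters. So were the peptidase gene Apeh (70.0%, rank 67) and Rbm6 (64.4%, rank 248). Tusc2 (59.2%, rank 556), within the same block, was not. Nor was the signalling suppressor gene Cish (51.1%, rank 1736), outside the block on the same chromosome. The poly(A)-binding protein gene Pabpc1 was a local promoter (66.6%, rank 161). The DNA repair gene Nhej1 (53.8%, rank 1250), Actb for beta-actin (53.3%, rank 1337), the mitoferrin gene Slc25a37 (51.2%, rank 1724) and the transcription factor gene Nfe2l1 (42.0%, rank 3908) were not.

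Local events were spread over both sides of the viewpoint at most local promoters. From 2.5 kb to 1 Mb, the side with more events held medians of 56.1%, 55.6% and 55.5% in libraries a, b and c (55.8% ± 0.375), against 57.0% ± 0.161 at the other promoters. The difference of -1.21 points turned to 0.300 when the promoters were chosen with the 10 Mb denominator. At 9 local promoters (3.00%) one side held 75% or more of the events in the sum of the libraries, and this was so at 121 of the other promoters (1.95%). The 9 were Gon4l, 1700047I17Rik2, Cd24a, Cnnm2, Rpl6, Nat8f4, Slc25a39, Bcl2l1_a and Hba-2, of which Gon4l, 1700047I17Rik2 and Nat8f4 have the partner fragments with shared sequence shown above on that side.

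Cd24a, which encodes a surface antigen of immature blood cells, had 90, 143 and 133 events on the side of lower coordinates in libraries a, b and c and 496, 783 and 810 on the other, so that 84.9% ± 0.414 lay on one side. Hba-2 was turned the other way, with 774, 1139 and 1213 events at lower coordinates and 169, 230 and 232 at higher coordinates (82.8% ± 1.06). At Hba-1, which lies at lower coordinates than Hba-2, 65.3% ± 1.63 of events were at lower coordinates. The lower coordinates of both hold Nprl3, the gene whose introns contain the alpha-globin enhancers.

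The shape of the local contacts is shown for 4 local promoters. Within 100 kb, Prkar2b held 56.0%, 53.5% and 61.3% of its cis events in libraries a, b and c, and Hba-2 55.9%, 51.1% and 50.9%. Cd47 held 54.0%, 53.7% and 54.5%, and Ehbp1l1 49.6%, 43.1% and 43.1%. Over n = 2 these were 56.7% ± 1.01, 53.5% ± 3.50, 54.1% ± 0.0961 and 46.4% ± 4.62 in the same order. The SD takes the mean of b and c first and leaves out their gap, which at Prkar2b was wider than the SD. Within 250 kb the means over n = 2 were 68.2%, 58.2%, 65.3% and 64.4%. Ehbp1l1 thus had the lowest share within 100 kb, although its share within 1 Mb was the highest. Prkar2b had a separate rise at 75 to 100 kb on the side of lower coordinates. There 6.96%, 6.50% and 7.06% of its cis events fell in a single 25 kb bin in libraries a, b and c. No fragment of Prkar2b was called as a distinct contact by the negative binomial test below, with either estimate of the dispersion. At Prkar2b the rise is thus a description of the bins only. Prkar2b had under 5000 cis events and Cd47 had 1878 in the sum of the libraries. Percentages of single bins therefore carry counting error that is not shown. At Cd47 the bin at 75 to 100 kb on the side of lower coordinates held 13.6%, 7.62% and 9.45%. It stood above the next bin towards the viewpoint in libraries a and c but not in library b, where that bin held 7.89%.

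**Figure D5:**
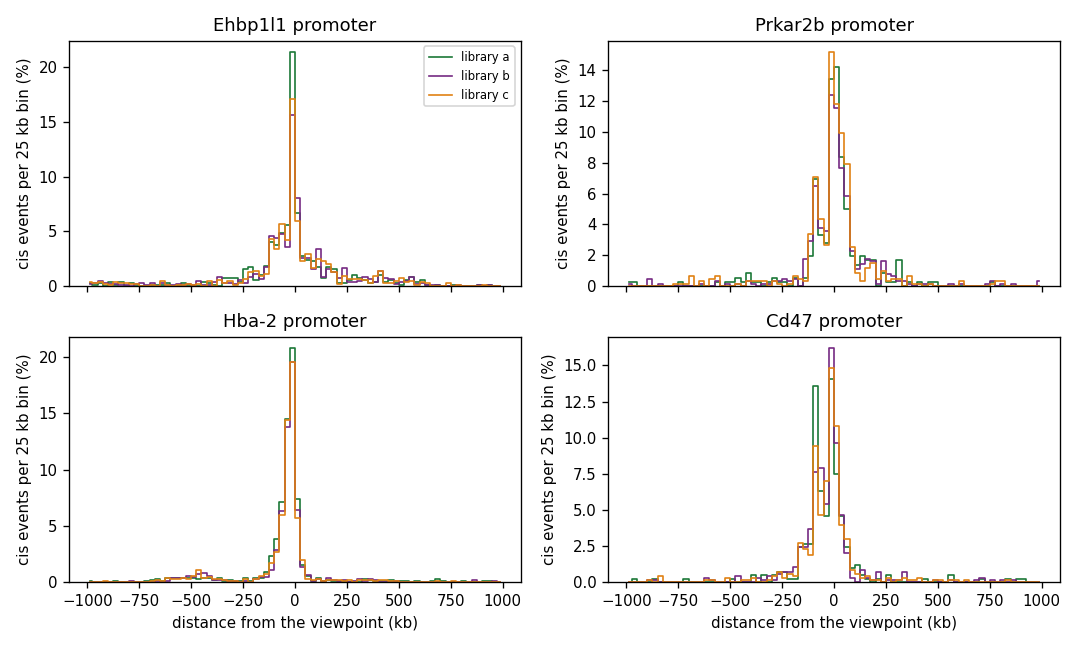
Percent of cis events per 25 kb bin (y axis) by distance from the viewpoint midpoint in kb (x axis) for Ehbp1l1, Prkar2b, Hba-2 and Cd47, with 1 line per library. Hba-2 leaned to lower coordinates, with 82.8% of its events from 2.5 kb to 1 Mb there. Prkar2b had a separate rise at 75 to 100 kb on the same side in all 3 libraries, where no fragment was called as a distinct contact. At Cd47 that bin ranged from 7.62% to 13.6% between libraries.

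Distinct contacts were called as fragments from 2.5 kb to 1 Mb with more events than expected at their distance, by a negative binomial test over all pairs of viewpoint and fragment with Benjamini-Hochberg adjustment. Over all eligible viewpoints 242 of 27950025 pairs were called, which is 0.000866%, and 149 viewpoints had a called pair, or 2.29%. The local promoters had 17 called pairs at 8 viewpoints, which is 2.67% of the 300 viewpoints and 0.00125% of their pairs. The dispersion was above 10 in 9 of the 50 bins of distance, up to 1419, so a promoter without a called pair is not shown to lack distinct contacts.

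Most of the called pairs lay at or next to repeated sequence. Of the 17, 6 had a fragment that shares an identical 30-base word with the viewpoint fragment, and another 7 touched such a fragment. At Gon4l, the fragment 60.0 kb away that is identical in 109 of 109 bases had 924, 1086 and 1184 events, or 29.8% of all cis events of the viewpoint (adjusted negative binomial p = 5.03e-136). At Nat8f4 the partner fragment, which shares 87 bases, had 410, 598 and 623 events (30.8% of cis events, adjusted negative binomial p = 1.48e-187). At 1700047I17Rik2 the partner, identical in 70 of 70 bases, had 87, 128 and 162 events (12.5%, adjusted negative binomial p = 4.73e-22). Nat8f4 was not chosen as a local promoter when fragments that share a word were left out. Nor was it chosen without the highest fragment of each viewpoint, or without contacts within 10 kb. Gon4l and 1700047I17Rik2 were still chosen in each of these settings. However, each setting kept fragments that adjoin the partner, which held 11.6% of cis events at 1700047I17Rik2 and 4.18% at Gon4l in single fragments. Whether these 2 would be chosen without all fragments at the copy was not tested. Without fragments that share a word, 294 of the local promoters were chosen again.

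At Rbm4b, the fragment beside the viewpoint of its paralogue Rbm4 had 501, 831 and 835 events (16.0%, adjusted negative binomial p = 9.29e-82) and shares 51 bases with Rbm4b in the opposite orientation. At the shared histone viewpoint Hist1h2bq_Hist1h2ap_Hist1h2ao, fragments at Hist1h2ao and next to it, the former identical over 393 of 397 bases, had 2306 and 3590 events in the sum of the libraries. Setdb1, a histone methyltransferase gene, had 25, 27 and 20 events at a word-sharing fragment 70.6 kb away. Reads from such copies can be assigned to the wrong place. Without fragments that share a word, and with the dispersion estimated again, 43 pairs at 16 local promoters were called. This is 0.00318% of pairs and 5.33% of viewpoints, against 0.00214% of pairs and 4.05% of viewpoints over all eligible viewpoints. Fragments that touch a word-sharing one were not left out, such as that with 3590 events at the histone viewpoint and 1 with 448 at Gon4l. The 43 pairs may therefore still hold events from copies. A fragment with a shared word lay within 1 Mb of 44 local promoters (14.7%) and of 987 other promoters (15.9%).

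Of the remaining 4 called pairs, 3 were at Hba-2. Hba-2 had 28, 25 and 39 events at chr11:32183838-32184112 (adjusted negative binomial p = 1.1e-08) and 27, 36 and 25 at the adjoining chr11:32184113-32184705 (adjusted negative binomial p = 2.24e-07), both in Hba-a1 beside the Hba-1 viewpoint. The first of these fragments is identical in 275 of 275 bases to a fragment of Hba-a2 close to the Hba-2 viewpoint, and the second in 590 of 593 bases to the next one, so their events cannot be placed with certainty in 1 of the 2 genes. It also had 12, 12 and 11 events at chr11:32146903-32148395 in Nprl3, 48.6 kb away, which was 12.6-fold ± 3.71 (SD, n = 2) above expectation. The adjusted p of this fragment was 0.00745.

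The number of called pairs changed with the estimate of the dispersion. When the top 0.1% of standardised counts did not enter its estimate, 63 pairs at 25 local promoters were called. This is 0.00464% of pairs and 8.33% of viewpoints, against 0.00408% of pairs and 7.81% of viewpoints over all eligible viewpoints. All 17 pairs of the first count were among them. The most were at Gon4l, with 10 called pairs, and at 1700047I17Rik2, with 9, all at or within a few kb of the partner fragment. At Hba-1, those added included chr11:32196655-32196929 and chr11:32196930-32197522 in Hba-a2, with 101 and 90 events. These are the copies of the Hba-a1 fragments named above. Also added at Hba-1 was the same Nprl3 fragment with 11, 13 and 12 events (adjusted negative binomial p = 0.013). Hba-2 then had 5 called fragments within Nprl3. Cd47 had 2 called fragments, 83.1 and 56.7 kb away at lower coordinates with 11 and 13 events in the sum of the libraries. Tfrc had 2 adjoining fragments 98.5 and 97.6 kb away in Zdhhc19, with 20 and 16 events, and Slc4a1 had 1 at 10.4 kb with 53 events.

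Fragments next to other viewpoints stood out less at the local promoters beyond 10 kb. The observed over expected value of fragments 1 or 2 places away from another viewpoint was divided by that of other fragments. Over the whole range from 2.5 kb to 1 Mb the local promoters had 1.18, 1.22 and 1.20 in libraries a, b and c. The mean was 1.19 ± 0.0249, against 1.47 ± 0.0199 at the other promoters. From 10 to 100 kb the values were 1.12 ± 0.024 against 1.31 ± 0.0171. Without fragments that share a word, the observed over expected value of these flanks from 10 to 100 kb was 1.02 ± 0.0116 at the local promoters, where that of other fragments was 1.00, and 1.28 ± 0.0119 at the other promoters. From 2.5 to 10 kb the order was turned, with 0.999 ± 0.0092 against 0.905 ± 0.0183. From 100 to 500 kb the values were 1.20 ± 0.0141 against 1.72 ± 0.0028, and from 500 kb to 1 Mb 1.59 ± 0.0316 against 2.06 ± 0.0386. Such fragments made up 2.65% of the pairs of local promoters and 1.09% of those of the other promoters.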

How the data were processed

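The authors digested nuclei with DpnII, captured promoter fragments with oligonucleotide probes, trimmed and aligned the reads (Trim Galore and Bowtie on mm9, per the labels, versions not given in the sources used here), removed PCR duplicates and counted unique ligation events for each viewpoint and fragment. The deposited signal values are events per 100000 cis events of the same viewpoint and library, in 3 columns without sample names, with 0 further columns of values. Dividing by the lowest nonzero value of a viewpoint in a library, taken as 1 event, gave whole numbers for 100% of values (tolerance 0.01). These worked-back counts were used, although a signal had been planned for. Targeted fragments appeared in 0 contacts.

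Shares, medians and slopes were computed in Python 3.11.15 with numpy 2.4.6, scipy 1.17.1 and pandas 2.3.3. Intervals are exact binomial (Clopper-Pearson) at 95%. Positions were set against the mm9 genome digested in silico, and genes came from GENCODE. For calling, the counts of the 3 libraries were summed, the expected count was the mean of 1 of 50 bins of distance scaled by the viewpoint's total in that range, and the dispersion was taken per bin. Pairs with an adjusted p under 0.05 and more events than expected in each library were called. The procedure was also run on simulated pairs with the same dispersion set at every distance. In the data the dispersion differed between bins, up to 1419, so that run does not show how the calls perform here.

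The members and gene lists were chosen with earlier results of these data known. Named are the 10 highest local shares, the 3 viewpoints on either side of the limit, the 5 with the highest share in a single fragment, the 5 with the most called fragments, the members of the 3 longest runs, up to 3 members of each of 25 gene lists and a set of well studied promoters. Genes outside these rules (Plpp1, Tmem242, Gda, Dimt1, Carhsp1, Ptges3, Dapk2, Ifnar1, Ifnar2, Slc4a1, Cd24a and Cnnm2) were chosen after their values were seen. Alternatives were other windows, denominators, depth minimums, dispersions and left-out libraries. The called pair of 1 further local promoter is not reported here.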

Additional observations from a re-analysis of the deposited data

How the results depend on the processing

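No paired analysis was possible because the 3 libraries form 1 group, and differences between local and other promoters were taken within each library. Of the 300 chosen promoters, 160 were chosen again with the signal within 10 Mb as the denominator, 147 with a minimum of 5000 cis events, which no more than 147 reach, and 183 when the same proportion was taken from each chromosome, and leaving out 1 library kept 283 to 292. Apart from the depth minimum, 90 were chosen under every alternative run.

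The median local share was 61.2% within 500 kb, 72.6% within 2 Mb, 86.4% of the signal within 10 Mb, 64.2% with 5000 events and 64.0% with contacts within 10 kb left out, against 67.6%, and 65.4% to 67.6% with a library left out. Chosen again on the denominators and minimums named, the excess of captured promoters within 1 Mb, 24 at first, was 20 for the 500 kb window, 16 for the 10 Mb denominator, 23 for 5000 events, 23 without fragments sharing a word and 11 within chromosomes, and 24 with any 1 library left out. The ratio of cis events was 0.844 with 5000 events and 0.653 within chromosomes, and 0.648 to 0.760 with a library left out, the lowest without library a. Chromosomes 10 and 19 held 101 of the 300, but 60 with the 10 Mb denominator and 26 within chromosomes, and 98 to 103 with a library left out. The number with a local promoter as nearest neighbour stayed within 155 to 232.

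The difference of the fuller side from the other promoters, -1.21 points, was 0.300 with the 10 Mb denominator, -0.726 with 500 kb, -0.888 with 5000 events and -0.687 within chromosomes, and -1.27 to -1.17 with a library left out. The held-out difference, 22.9 points when read in library a, was 22.7 when read in b and 22.4 when read in c. The decay slope was -0.896 with summed counts and -0.927 to -0.910 with a library left out. Its difference from the other promoters was 0.00693 over 20 to 500 kb and -0.0311 with summed counts, and -0.0127 to -0.0118 with a library left out.

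Called pairs numbered 63 at 25 local promoters with the trimmed dispersion and 43 at 16 without fragments sharing a word. Poisson counts gave 5861 at 296, which is 0.432% of their pairs against 0.548% over all eligible viewpoints. By viewpoints this was 98.7% against 98.0%. With a library left out there were 14 to 17 pairs at 7 to 8 local promoters. These were 0.00103% to 0.00125% of pairs and 2.33% to 2.67% of viewpoints. Over all eligible viewpoints they were 0.000619% to 0.000716% and 1.73% to 2.12%. The cause of these changes was not tested. At 1001 events a local share has an interval several points wide, so ranks near the limit carry no order.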
